A study of Mus musculus with 8 samples.

Results

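Glycolysis and hypoxia-inducible genes were followed as a set of 34 genes across 8 RNA-seq libraries of 3T3-L1 cells. The genes were chosen by symbol from knowledge of the pathways, with earlier results of these data known. All 34 were found among the 49585 genes of the count table. The set held 15 glycolysis genes (Hk1, Gpi1, Pfkl, Pfkp, Pfkm, Pfkfb3, Aldoa, Aldoc, Tpi1, Gapdh, Pgk1, Pgam1, Eno1, Pkm and Ldha). It held 17 other hypoxia-inducible genes (Slc16a3, Pdk1, Car9, Adm, Bnip3, Ndrg1, Egln1, Egln3, Ankrd37, P4ha1, P4ha2, Ddit4, Kdm3a, Bhlhe40, Mxi1, Fam162a and Higd1a). Hif1a and Epas1, which encode oxygen-regulated alpha subunits of the hypoxia-inducible factors, completed it. Of the 34 genes, 33 had enough counts to be tested, and Aldoc, a second aldolase with 9 counts in all 8 libraries, did not.

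3T3-L1 is a clonal mouse fibroblast line, here 1 line only, that can form fat cells in culture. Cells were grown flat in dishes (2D) or in hanging drops as spheroids (3D), and either format was left uninduced or given an adipogenic mixture, which makes 4 groups of 2 libraries. All groups shared a high-glucose medium with calf serum, biotin, pantothenate, antibiotics and methylcellulose, and all were taken on day 7. Spheroids began as about 20000 cells in a 28 µL drop. Induced cultures of both formats received 250 nM dexamethasone and 10 nM triiodothyronine for the first 2 days, and 10 µM troglitazone with 1 µg/ml insulin for 7 days. Uninduced cultures received none of these agents. The oxygen level of the cultures is not given in the sources used here.

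Glycolysis splits glucose to pyruvate, and lactate dehydrogenase turns pyruvate into lactate when it is not burned in mitochondria. Most enzymes of the path are also targets of the hypoxia-inducible factors. In oxygen, the prolyl hydroxylases (Egln genes) mark the alpha subunits for destruction. When oxygen is short, the alpha subunits persist and bind short DNA letters near their targets. Fat cells use glycolysis to supply the glycerol backbone of stored fat, and insulin raises glucose uptake in them.

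The libraries held 11839374 to 21169390 counts, and levels are given as CPM, which are read counts relative to the scaled library size. Each fold change is on the log2 scale and carries the standard error from edgeR (n = 2 libraries per group). To be called, a gene needed a change of at least 2-fold and an adjusted p under 0.05, from edgeR's quasi-likelihood test with Benjamini-Hochberg adjustment over 15255 genes. The labels call the samples independently prepared and do not say that they were separate cultures, so p-values measure only the spread between these samples. That spread was uneven, with a biological coefficient of variation of 0.0469 in uninduced and 0.0473 in induced flat libraries, and 0.110 in uninduced and 0.326 in induced spheroid libraries. The 2 libraries of the 3D induced group stood apart, with 2159 genes at least 2-fold apart, against 380 to 561 in the other groups.

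Several marker lists moved with the groups. The 8 adipocyte markers summed to 75.9 and 76.1 CPM in uninduced and 6000.5 and 5524 in induced flat libraries, and 109.7 and 106 in uninduced and 1121 and 2232 in induced spheroid libraries, and none was at 0 in all libraries. The 8 fibroblast markers summed to 45298 and 46631 CPM in uninduced and 31449.8 and 30782 in induced flat libraries, and 16391 and 18813 in uninduced and 21983 and 8013 in induced spheroid libraries, none at 0. Of 6 macrophage markers, Ptprc and Adgre1 had no counts, and the sum was 16.5 to 22.0 CPM in 2D and 27.6 to 64.4 CPM in 3D libraries. The 5 endothelial and the 5 epithelial markers summed to at most 1.99 and 3.84 CPM. The 6 cycling markers summed to 220.2 to 299.6 CPM in 2D libraries, 323 and 178 in 3D uninduced, and 370.2 and 109.5 in 3D induced libraries, none at 0. A list of 7 nuclear-retained and mitochondrially encoded transcripts, kept as a sign of RNA quality, summed to 3525 to 4070.4 CPM in 2D and 13737 to 26336 CPM in 3D libraries. What these differences contribute to the results below was not tested.

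**Figure D1:**
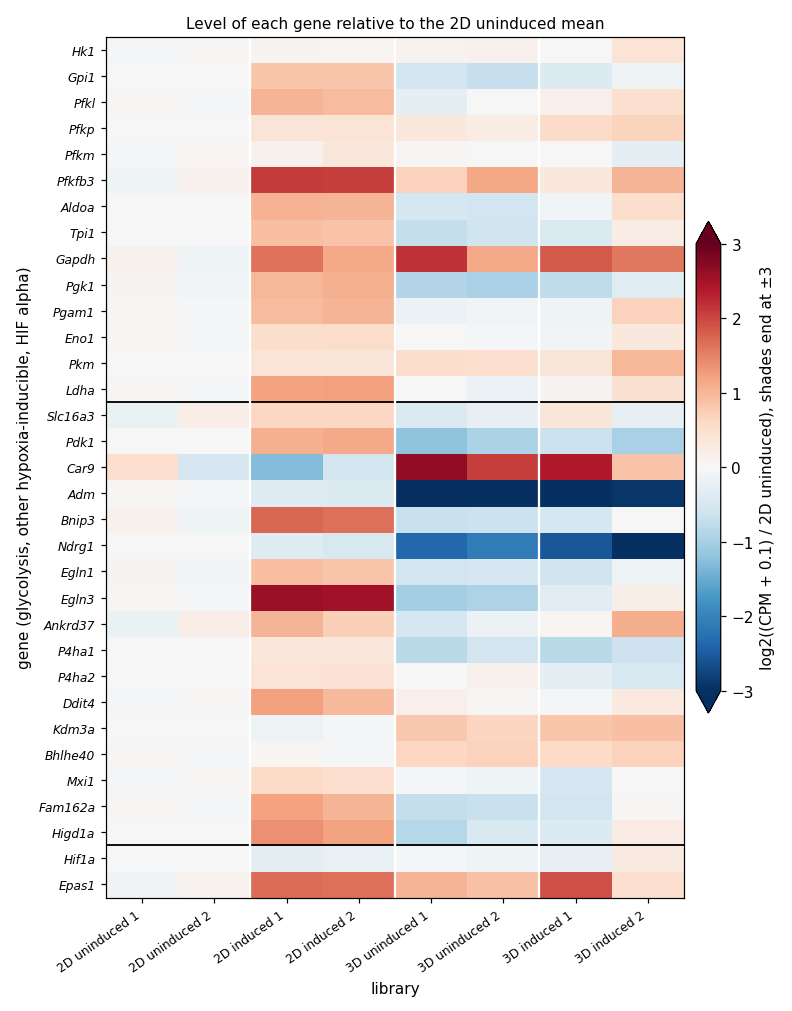
Level of the 33 tested genes in each of the 8 libraries, as log2 of (CPM + 0.1) over the 2D uninduced mean, with shades ending at ±3. Both 2D induced libraries are red for most glycolysis genes and for Bnip3, Egln3, Fam162a and Higd1a, while Adm and Ndrg1 are blue in all 4 spheroid libraries.

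Most glycolysis genes were higher in induced than in uninduced flat cultures. All 14 tested glycolysis genes had a positive fold change, 10 had an adjusted p under 0.05 and 5 were called higher (Pfkfb3, Gapdh, Ldha, Aldoa and Pgk1), with a median of 0.93 on the log2 scale against 0.00 over all genes tested. Over the whole set, 12 of 33 genes were called higher, where 3.17% of all genes tested were. The Gapdh call is uncertain. With the counts of genes that share its sequence added, its log2 fold change was 0.92, under 2-fold, and 11 members were called. At an adjusted p under 0.05 with any fold, 18 of 33 were higher, against 5.91% of all genes. No member was called lower by edgeR, DESeq2 or limma-voom (1.34% of all genes were by edgeR). With any fold, edgeR had 0 members lower at an adjusted p under 0.05, where 2.97% of all genes were. At an unadjusted p under 0.05 edgeR had 0 lower, and limma-voom had 3 at an adjusted p under 0.05. Shares of all genes for the unadjusted and the limma-voom counts are not given here. In bulk samples, a change in the number of cells of a type cannot be told apart from a change in RNA per cell.

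Pfkfb3, which makes fructose 2,6-bisphosphate, the strongest activator of phosphofructokinase, changed most among the glycolysis genes. It stood at 8.31 and 9.80 CPM in uninduced and 38.9 and 38.5 in induced flat libraries, and 14.6 and 20.4 in uninduced and 11.2 and 18.5 in induced spheroid libraries. Both 2D induced libraries were above all others, and the 2 spheroid groups overlapped. Induction raised it 2.10 ± 0.27 in 2D, or 4.28-fold (edgeR adjusted p = 0.00346).

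Ldha, which encodes the muscle-type lactate dehydrogenase subunit, stood at 510.2 and 488 CPM in uninduced and 1153 and 1178 in induced flat libraries, and 504 and 445 in uninduced and 525 and 682 in induced spheroid libraries. The 2D induced pair stood clear of the other 6 libraries, and the rise in 2D was 1.22 ± 0.15 (edgeR adjusted p = 0.00294). Pgk1, phosphoglycerate kinase, the first enzyme of the path to yield ATP, stood at 838 and 750.0 CPM in uninduced and 1573 and 1660.4 in induced flat libraries, and 433 and 407 in uninduced and 470.4 and 614 in induced spheroid libraries. Every 2D library was above every spheroid library, and induction raised it 1.03 ± 0.15 in 2D (edgeR adjusted p = 0.00674). Aldoa, the main aldolase, stood at 901 and 891 CPM in uninduced and 1855 and 1816 in induced flat libraries, and 622 and 606 in uninduced and 843 and 1283 in induced spheroid libraries. Its rise in 2D was 1.03 ± 0.19 (edgeR adjusted p = 0.0158).

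Of the other glycolysis genes, 5 passed an adjusted p under 0.05 in 2D at less than 2-fold. These were Pgam1 (0.99), Pfkl (0.98), Tpi1 (0.88), Gpi1 (0.83) and Pfkp (0.39), each a log2 fold change. Eno1 (0.53), Pkm (0.38), Pfkm (0.24) and Hk1 (0.06) did not pass. Hk1, the first enzyme of the path, ranged from 141 to 193 CPM over all 8 libraries.

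Among the hypoxia-inducible genes in flat culture, 6 of 17 were called higher, where 3.17% of all genes tested were. At an adjusted p under 0.05 with any fold 7 were higher, against 5.91% of all genes. Their median log2 fold change was 0.64, against 0.00 over all genes tested. Egln3, a prolyl hydroxylase that is itself a target of the hypoxia-inducible factors (ENSMUSG00000035105, chromosome 12, 54178981 to 54203860, minus strand, GRCm38), changed most. It stood at 27.1 and 26.0 CPM in uninduced and 160.2 and 152 in induced flat libraries, and 13.1 and 14.0 in uninduced and 21.3 and 30.2 in induced spheroid libraries. The 2D induced pair was far above the rest and the 3D uninduced pair lowest. Induction raised it 2.55 ± 0.17 in 2D, or 5.87-fold (edgeR adjusted p = 0.000193).

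Bnip3, a mitochondrial protein that promotes removal of mitochondria (ENSMUSG00000078566, chromosome 7, 138890836 to 138909519, minus strand), stood at 69.6 and 58.7 CPM in uninduced and 209.9 and 200.5 in induced flat libraries, and 40.0 and 40.9 in uninduced and 44.5 and 63.9 in induced spheroid libraries. Its rise in 2D was 1.68 ± 0.18 (edgeR adjusted p = 0.00147). Pdk1, a kinase that shuts off pyruvate dehydrogenase, stood at 98.8 and 98.6 CPM in uninduced and 205 and 216 in induced flat libraries, and 42.8 and 50.8 in uninduced and 62.8 and 50.3 in induced spheroid libraries. It rose by 1.09 ± 0.14 in 2D (edgeR adjusted p = 0.00328), and its 4 spheroid libraries were all below its 4 flat libraries.

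Higd1a (1.29), a mitochondrial membrane protein, Ddit4 (1.12), an inhibitor of mTORC1, and Fam162a (1.12), another mitochondrial protein, were the other called genes, each a log2 fold change in 2D. Egln1, the main oxygen-sensing prolyl hydroxylase, rose 0.86 ± 0.15 (edgeR adjusted p = 0.0145) and was not called. Not all hypoxia-inducible genes rose: Adm (-0.40), Ndrg1 (-0.44), Kdm3a (-0.10) and Car9 (-1.95, on 6 counts against 1) had negative fold changes that did not pass, and Bhlhe40 (0.02) was level. Of the alpha subunits, Hif1a stood at 265 and 259 CPM in uninduced and 214 and 225 in induced flat libraries, and 255 and 238 in uninduced and 219 and 313 in induced spheroid libraries, and no comparison called it. Epas1 stood at 13.9 and 16.2 CPM in uninduced and 48.0 and 47.3 in induced flat libraries, and 30.8 and 27.8 in uninduced and 57.4 and 21.5 in induced spheroid libraries. It rose 1.66 ± 0.39 in 2D (edgeR adjusted p = 0.0399), and its 3D induced libraries lay 1 above and 1 below the 2D induced pair.

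With each library left out in turn, the number of calls in flat culture fell. The group that loses a library then holds 1, which is assumed to vary like the other groups, and these differ in spread. Of the 12, without 2D uninduced replicate 1 only Bnip3 and Egln3 were still called (2), and without its replicate 2 Bnip3, Egln3 and Pfkfb3 (3). Without 2D induced replicate 1 there were 5, without its replicate 2 there were 4, and without any 1 spheroid library there were 11, where Epas1 or Gapdh was lost. The fold changes themselves moved little: over all left-out libraries the log2 fold change of Egln3 was 2.48 to 2.55, that of Bnip3 1.52 to 1.76 and that of Pgk1 0.91 to 1.06.

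**Figure D2:**
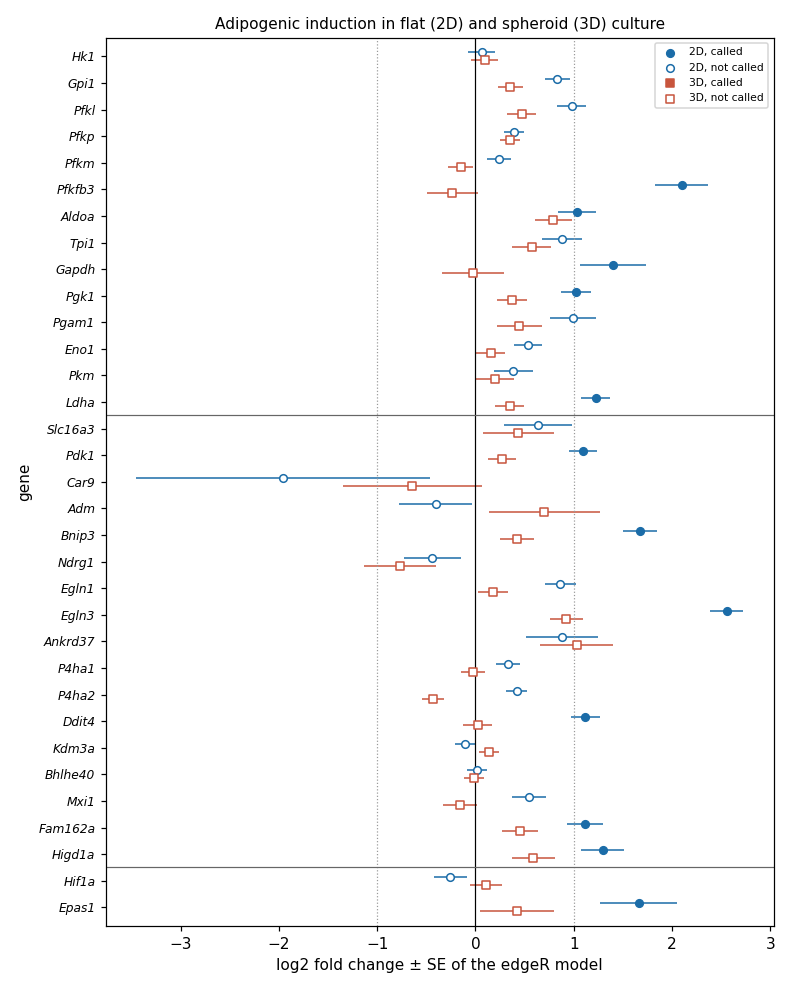
Log2 fold change ± SE on induction for the 33 tested genes in flat (circles) and spheroid (squares) culture, filled where called, with dotted lines at a 2-fold change. In 2D 12 circles are filled, Egln3 farthest right at 2.55, and no 3D square is filled.

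Promoter letters of the set were read from RefSeq windows of GRCm38.p6, from 250 bases before to 50 bases after each start site. Of the 34 genes, 31 had a window (48 windows in all), and Bhlhe40, Epas1 and Ndrg1 had none. The core letters ACGTG or GCGTG, searched on both strands, stood in 79.2% of the set's windows, in 43.8% of all 32851 windows and in 60.8% of the windows of tested genes. The longer ACGTGC, which contains the first core, stood in 18 of 48 windows (37.5%, 17 genes), in 5.91% of all windows and in 7.95% of those of tested genes. It was in 22.2% of the glycolysis windows and in 55.0% of those of the other hypoxia-inducible genes. The set's windows were richer in G and C, with a median of 63.2% against 52.7% in all windows and 60.3% in those of tested genes. A match describes letters only. The genes were chosen from knowledge of the pathways, many of them as hypoxia-inducible, so the larger shares are not an independent result. Some genes have several windows, which can overlap and count more than once. The windows of 4 genes called higher on induction in 2D are printed to show where the letters lie, with ACGTGC, or GCACGT where it is on the other strand, in capitals. Egln3, the gene with the largest change, is printed beside them because its window holds 1 core and no ACGTGC. Each runs 5′ to 3′ on the gene's strand.
Bnip3, chr7:138909457-138909756, minus strand: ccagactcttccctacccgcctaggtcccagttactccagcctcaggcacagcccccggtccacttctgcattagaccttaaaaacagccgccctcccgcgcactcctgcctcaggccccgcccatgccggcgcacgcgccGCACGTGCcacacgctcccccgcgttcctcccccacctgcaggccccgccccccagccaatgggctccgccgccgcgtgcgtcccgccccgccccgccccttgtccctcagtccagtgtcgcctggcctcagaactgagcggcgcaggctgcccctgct
Fam162a, chr16:36071512-36071811, minus strand: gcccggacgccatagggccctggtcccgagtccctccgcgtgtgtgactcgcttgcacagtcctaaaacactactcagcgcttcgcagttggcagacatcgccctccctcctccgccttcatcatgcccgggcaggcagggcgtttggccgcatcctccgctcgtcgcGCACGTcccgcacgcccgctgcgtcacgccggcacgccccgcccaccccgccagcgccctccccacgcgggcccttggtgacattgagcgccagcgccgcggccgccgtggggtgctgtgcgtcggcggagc
Ldha, chr7:46845554-46845853, plus strand: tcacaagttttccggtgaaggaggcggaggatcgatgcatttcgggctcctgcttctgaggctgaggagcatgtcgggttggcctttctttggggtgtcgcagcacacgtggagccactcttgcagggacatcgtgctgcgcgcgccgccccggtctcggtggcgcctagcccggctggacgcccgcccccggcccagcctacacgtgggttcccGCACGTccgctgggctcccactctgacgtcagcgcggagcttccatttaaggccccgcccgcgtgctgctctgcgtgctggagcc
Pgk1, chrX:106186850-106187149, plus strand: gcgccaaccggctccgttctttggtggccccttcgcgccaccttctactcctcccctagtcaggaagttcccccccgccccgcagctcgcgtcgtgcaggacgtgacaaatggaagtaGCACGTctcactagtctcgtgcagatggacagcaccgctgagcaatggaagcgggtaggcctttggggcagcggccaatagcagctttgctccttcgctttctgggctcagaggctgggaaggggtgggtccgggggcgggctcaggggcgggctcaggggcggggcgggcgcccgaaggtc
Egln3, chr12:54203825-54204124, minus strand: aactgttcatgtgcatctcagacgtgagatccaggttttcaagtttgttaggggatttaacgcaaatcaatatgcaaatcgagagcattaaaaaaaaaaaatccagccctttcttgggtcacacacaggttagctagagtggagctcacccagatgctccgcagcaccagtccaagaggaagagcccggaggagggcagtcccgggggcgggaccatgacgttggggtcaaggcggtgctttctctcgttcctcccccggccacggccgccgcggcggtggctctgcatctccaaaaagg

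In Bnip3 the letters form overlapping matches on both strands, starting at -109 and -107 from the start site. They start at -82 in Fam162a, at -35 in Ldha and at -132 in Pgk1. Other genes called in 2D with ACGTGC were Pfkfb3 (at -60), Ddit4 (at -187) and Gapdh (at 42). Genes not called in that comparison held it too: Hk1 (at 17), P4ha1 (at -17), Hif1a (at -136), Pgam1, Slc16a3, Car9, Egln1, Ankrd37, P4ha2 and Mxi1. The called genes with a window but no ACGTGC were Egln3, Pdk1, Aldoa and Higd1a.

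In spheroids, induction called no member by edgeR, in either direction, where 0.583% of all genes tested were called higher and 0.328% lower. With any fold, 0 were higher and 0 lower at an adjusted p under 0.05, against 0.859% and 0.505% of all genes. DESeq2 and limma-voom also called 0. At an unadjusted p under 0.05 in edgeR 12 of 33 genes were higher and 1 was lower. The share of all genes at that unadjusted threshold is not given here, so these counts have no background to be read against. The median log2 fold change was 0.35 for the glycolysis genes and 0.18 for the other hypoxia-inducible genes, against 0.04 over all genes tested. Egln3 (0.93 ± 0.17, edgeR adjusted p = 0.0519) and Aldoa (0.79 ± 0.19, edgeR adjusted p = 0.106) were nearest to a call. Ankrd37, an ankyrin repeat protein and target of the hypoxia-inducible factors, had the largest fold change (1.03 ± 0.37, edgeR adjusted p = 0.297), with 2.65 and 3.42 CPM in 3D uninduced and 4.06 and 8.31 in 3D induced libraries.

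The 2 libraries of the 3D induced group differed over this set. In replicate 2, 25 of 33 genes were higher than in replicate 1, with a median log2 difference of 0.38, against -0.01 over all genes tested. Pgam1, phosphoglycerate mutase, stood at 367 and 648 CPM in these libraries, Tpi1 at 574 and 903 and Pkm, pyruvate kinase, at 1441 and 2249. With 1 library of the group left out, the spread comes from the other groups, which varied less. Without replicate 1, Adm, Aldoa, Ankrd37 and Egln3 were called higher and Ndrg1 lower, and without replicate 2 no member was called. In both fits more of all genes tested were called than with all libraries. These calls are therefore not read as a result about the set. Replicate 2 had adipocyte markers at 2232 CPM, cycling markers at 109.5, fibroblast markers at 8013 and RNA quality transcripts at 26336 CPM. Replicate 1 had 1121, 370.2, 21983 and 15331 CPM in the same order, and the part of these in the difference was not tested.

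The difference between the 2 inductions was tested as an interaction. It called 1 member lower, Egln3 (-1.63 ± 0.24, edgeR adjusted p = 0.0417), and 0 higher, where 0.341% and 0.0393% of all genes tested were called. Egln3 thus rose 3.09-fold less in spheroids than in flat culture. Pfkfb3 had the larger difference (-2.33 ± 0.37) and missed the call (edgeR adjusted p = 0.0588). P4ha2, a collagen prolyl hydroxylase subunit (-0.85, adjusted p = 0.0875), Ddit4 (-1.09, adjusted p = 0.110) and Bnip3 (-1.25, adjusted p = 0.118) followed in that edgeR test. Of the 33 genes, 27 had a negative interaction, as had 7191 of the 15255 genes tested, with medians of -0.48 and 0.02. At an unadjusted p under 0.05 in edgeR 14 members were lower and 0 higher, and the share of all genes at that threshold is not given here. DESeq2 called 4 lower (Bnip3, Ddit4, Egln3 and Pfkfb3) and limma-voom 3, both with 0 higher. The call of Egln3 was lost without any 1 of the 2D or 3D uninduced libraries or the 2D induced libraries (0 calls each). Without either 3D induced library more members were called, and more of all genes tested were called too. A fit with the replicate number as a block called Pfkfb3 in place of Egln3. In this comparison 3 of the 8 adipocyte markers were called lower too.

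**Figure D3:**
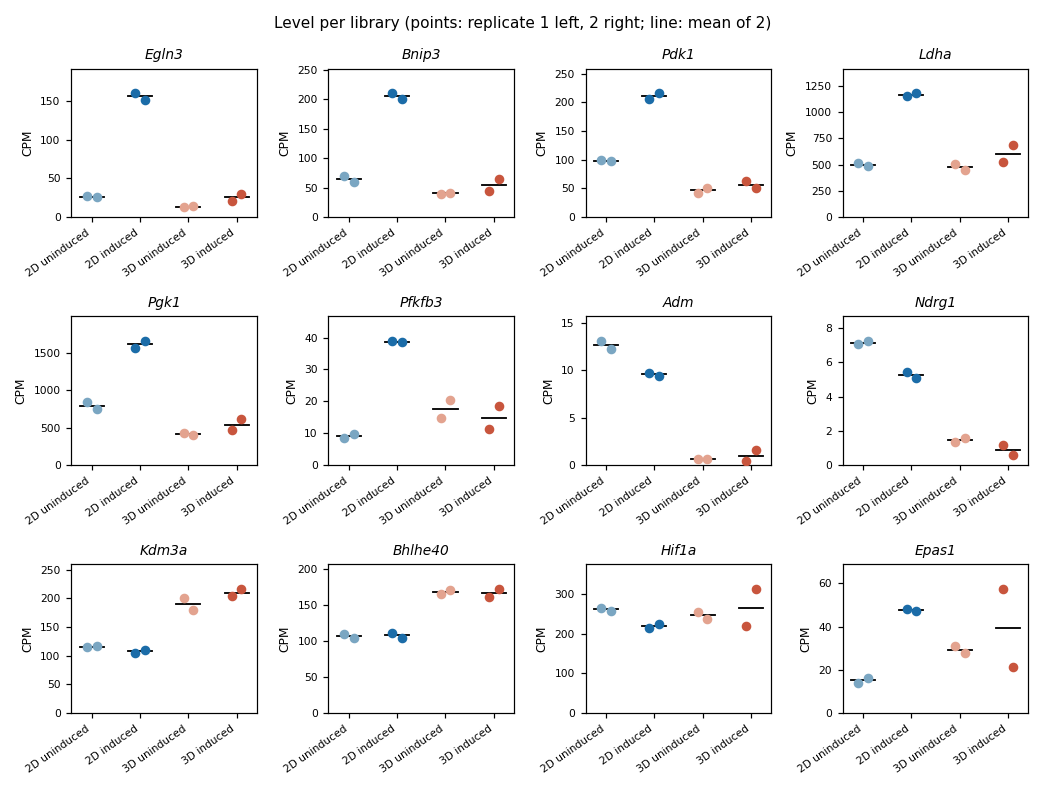
CPM in each library for 12 genes of the set, with points for the 2 replicates and a line at their mean, each axis starting at 0. Egln3, Bnip3, Ldha and Pfkfb3 are highest in the 2D induced pair, Adm and Ndrg1 are near 0 in all spheroids, and Epas1 stands at 57.4 and 21.5 CPM in its 3D induced libraries.

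Without induction, spheroids had less of several hypoxia-inducible genes than flat cultures. Of the 33 genes, 3 were called lower (Adm, Ndrg1 and Pdk1), where 4.02% of all genes tested were, and 1 was called higher (Gapdh), where 5.42% were. The Gapdh call is uncertain, since with the counts of genes that share its sequence added its log2 fold change turned from 1.75 to -0.30, as described with its other values. At an adjusted p under 0.05 with any fold, 10 were lower and 4 higher, against 10.2% and 10.9% of all genes. The number higher is near the share of all genes and says nothing particular about the set. The 17 hypoxia-inducible genes had a median of -0.55, with 8 lower and 2 higher at an adjusted p under 0.05. The glycolysis genes had a median of -0.05, and all genes tested 0.03. Fibroblast markers were lower in spheroids (3 of 8 called) and the RNA quality transcripts higher (6 of 7 called) in the same comparison.

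Adm, which encodes the vessel-relaxing peptide adrenomedullin (ENSMUSG00000030790, chromosome 7, 110627661 to 110629820, plus strand), stood at 13.1 and 12.3 CPM in uninduced and 9.74 and 9.45 in induced flat libraries, and 0.590 and 0.654 in uninduced and 0.406 and 1.58 in induced spheroid libraries. All 4 spheroid libraries were below all 4 flat libraries, on 6 to 27 counts each. It was lower in uninduced spheroids by a log2 fold change of -4.33 ± 0.48 (edgeR adjusted p = 0.00167) and in induced ones by -3.23 ± 0.45 (edgeR adjusted p = 0.00257). The latter was -2.59 without 3D induced replicate 1 and -4.53 without its replicate 2. Ndrg1, a stress-responsive gene (ENSMUSG00000005125, chromosome 15, 66929318 to 66969640, minus strand), showed the same order. It stood at 7.07 and 7.24 CPM in uninduced and 5.45 and 5.11 in induced flat libraries, and 1.33 and 1.60 in uninduced and 1.15 and 0.585 in induced spheroid libraries. Its log2 fold change in spheroids was -2.28 ± 0.32 uninduced and -2.61 ± 0.34 induced (edgeR adjusted p = 0.00331 and 0.00208), and limma-voom lost the call in induced spheroids (adjusted p = 0.0566).

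Pdk1 was the third gene called lower in uninduced spheroids (-1.08 ± 0.14, edgeR adjusted p = 0.00271), and without 3D uninduced replicate 1 it fell short of 2-fold, at -0.96. Egln3 (-0.97), Pgk1 (-0.92), Fam162a (-0.68), P4ha1 (-0.68), Bnip3 (-0.67), Gpi1 (-0.62) and Egln1 (-0.55) were lower at an adjusted p under 0.05 but less than 2-fold. P4ha1, the other collagen prolyl hydroxylase subunit, stood at 428 and 418 CPM in uninduced and 529.6 and 536 in induced flat libraries, and 241 and 286 in uninduced and 243 and 274 in induced spheroid libraries. Its spheroid libraries were all below its flat libraries, and the 2 spheroid groups overlapped.

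The genes that were higher in spheroids included 2 regulators of transcription. Kdm3a, a histone H3 lysine 9 demethylase, stood at 114 and 116 CPM in uninduced and 104 and 111 in induced flat libraries, and 201 and 180.1 in uninduced and 203 and 216 in induced spheroid libraries. Bhlhe40, a repressor of transcription, stood at 109 and 104 CPM in uninduced and 112 and 104 in induced flat libraries, and 165 and 172 in uninduced and 161 and 173 in induced spheroid libraries. For both genes every spheroid library was above every flat library. Kdm3a rose 0.73 ± 0.10 without and 0.97 ± 0.11 with induction (edgeR adjusted p = 0.00367 and 0.00113), and Bhlhe40 0.66 ± 0.10 and 0.63 ± 0.10 (edgeR adjusted p = 0.00444 and 0.00419), all under 2-fold.

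Car9, a cell-surface carbonic anhydrase widely used as a hypoxia marker, was near the limit of detection. It had 6 counts in the 2D uninduced pair, 1 in the 2D induced, 33 in the 3D uninduced and 24 in the 3D induced pair. The ratio of spheroids to flat culture was 6.72 without induction (95% counting interval 2.78 to 19.6) and 19.2 with it (3.13 to 789), intervals that cover counting error only. It was called higher in induced spheroids (edgeR adjusted p = 0.0415) and not in uninduced ones (0.0578). The call in induced spheroids was lost in DESeq2 and limma-voom, and without any 1 library except 3D induced replicate 2.

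With induction, spheroids had less of most genes of the set than flat cultures. Of the 33 genes, 12 were called lower, where 5.46% of all genes tested were, and Car9 alone was called higher, where 6.94% were. At an adjusted p under 0.05 with any fold, 19 were lower and 3 higher, against 14.0% and 14.7% of all genes. Among the glycolysis genes 3 of 14 were called lower (median -0.66), and among the hypoxia-inducible genes 9 of 17 (median -1.04), against 0.03 over all genes tested. These libraries are the same 2D induced pair as in the induction contrast, so the 2 sets of values are not independent. In the same comparison 7 of 8 adipocyte markers were called lower and 6 of 7 RNA quality transcripts higher.

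Egln3 was lower in induced spheroids by -2.60 ± 0.17 on the log2 scale (edgeR adjusted p = 0.0002), Bnip3 by -1.92 ± 0.18, Pdk1 by -1.90 ± 0.14 and Pgk1 by -1.58 ± 0.15. Pfkfb3 (-1.38 ± 0.26), higher in spheroids by 0.96 ± 0.27 without induction, was among the called genes. Fam162a (-1.35), Higd1a (-1.34), Egln1 (-1.23), Gpi1 (-1.10), the isomerase that follows hexokinase, and P4ha1 (-1.04) completed the calls with Adm and Ndrg1. Ddit4 (-0.996), Tpi1 (-0.96), Ldha (-0.95), P4ha2 (-0.79), Aldoa (-0.79), Mxi1 (-0.79), a repressor of Myc, and Pfkl (-0.65) passed an adjusted p under 0.05 at less than 2-fold. Slc16a3, the lactate exporter, had 1.33 to 2.87 CPM in all libraries and was called nowhere. Of the 12 called lower, Adm, Bnip3, Egln1, Egln3, Fam162a, Higd1a, Ndrg1, Pdk1 and Pgk1 were called without each of the 8 libraries in turn. Pfkfb3 was lost without either 2D induced library, and Gpi1 and P4ha1 fell short of 2-fold, both at -0.95, without 3D induced replicate 1. Without 3D induced replicate 2 more members were called lower, and more of all genes tested were called too.

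**Figure D4:**
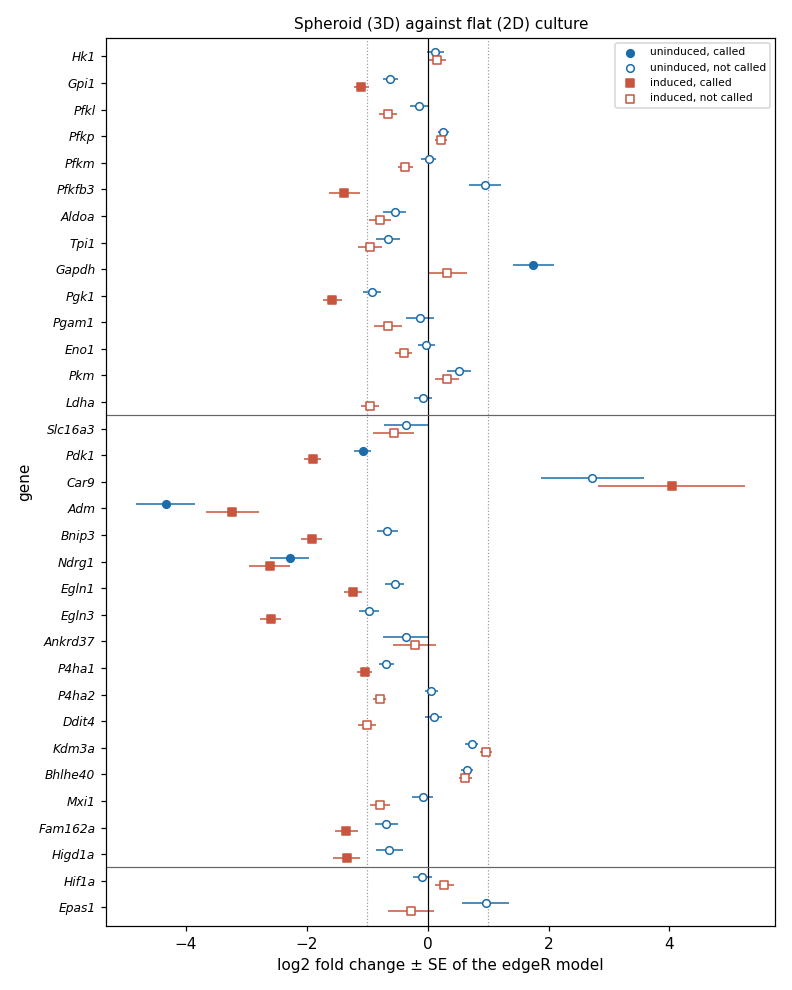
Log2 fold change ± SE of spheroid against flat culture for the 33 tested genes, uninduced (circles) and induced (squares), filled where called, with dotted lines at a 2-fold change. Adm (-4.33 and -3.23) and Ndrg1 (-2.28 and -2.61) are filled on the left in both, and 12 squares are filled on the left.

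Levels of different genes were compared per kilobase of the principal transcript. In 2D uninduced libraries Aldoa (593 CPM per kb), Tpi1 (484), Pkm (463) and Pgk1 (435) were the most abundant of the set, and Hk1 (37.6), Pfkm (38.7) and Pfkl (38.5), at the entry steps of the path, were at similar, lower levels. Of the 3 phosphofructokinase genes, Pfkl, the liver-type form, held 41.6% ± 1.56 of the length-scaled sum in uninduced and 53.5% ± 2.46 in induced flat libraries, and 37.5% ± 3.95 in uninduced and 44.9% ± 5.44 in induced spheroid libraries (SD, n = 2). Pfkm, the muscle-type form, held 41.7%, 32.1%, 42.4% and 33.0% in the same order, and Pfkp, the platelet-type form, 16.7%, 14.3%, 20.1% and 22.1%. Aldoa held 99.986% or more of the aldolase sum in every library.

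Among the prolyl hydroxylases, Egln3 held 15.8% of the length-scaled sum in uninduced and 45.8% in induced flat libraries, and 9.90% in uninduced and 15.8% in induced spheroid libraries. Egln1 held 29.1%, 26.2%, 24.5% and 23.3%, and Egln2, no member of the set, the remainder. Hif1a held 95.2% of the alpha subunit sum in uninduced and 81.9% in induced flat libraries, and 90.8% in uninduced and 87.9% in induced spheroid libraries. Epas1 held 4.70%, 15.2%, 9.24% and 11.9% in the same order, and Hif3a, no member of the set, 0.14%, 2.91%, 0% and 0.24%. The Epas1 share in the 2 libraries of the 3D induced group was 18.3% and 5.54%.

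Gapdh, the glyceraldehyde 3-phosphate dehydrogenase gene often used as a reference (ENSMUSG00000057666, chromosome 6, 125161715 to 125166467, minus strand), had far fewer counts than its neighbours in the path. It stood at 12.9 and 10.8 CPM in uninduced and 36.8 and 26.1 in induced flat libraries, and 53.6 and 26.2 in uninduced and 42.8 and 35.8 in induced spheroid libraries. Per kb it reached 8.33 CPM in 2D uninduced libraries, against 593 for Aldoa. Of the 50-base stretches of its principal transcript, 82.5% also occurred in another annotated gene. There were 87 genes with at least 100 such stretches, 79 of them processed pseudogenes, and together they held 73796 counts against 3518 for Gapdh.

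The Gapdh calls are therefore uncertain, since reads may be split between near-identical copies. With the counts of Gapdh and those genes summed, its log2 fold change on induction in 2D was 0.92 ± 0.16 in place of 1.40 ± 0.34 (edgeR adjusted p = 0.0124 and 0.0422), which ends the call at 2-fold. In uninduced spheroids it turned from 1.75 ± 0.34 to -0.30 ± 0.16 (edgeR adjusted p = 0.0112 and 0.210). That call was also lost without either 2D uninduced library, without 3D uninduced replicate 1 and without either 3D induced library, with log2 fold changes of 1.14 to 2.17 over the left-out libraries. In induced spheroids it was -0.80 ± 0.16 summed (edgeR adjusted p = 0.00923) and 0.32 ± 0.32 alone (0.484). Eno1, enolase, shared 72.2% of its stretches, with 38069 counts in the sharing genes against 57197 of its own, and Pgk1 68.0%, with 265 against 97004. Pgam1 (41.5%), Pkm (34.4%), Bnip3 (21.9%), Gpi1 (19.3%), Ldha (17.1%) and Aldoa (13.9%) shared less. For Eno1, Pgk1, Pgam1 and Pkm the summed counts changed no call.

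**Figure D5:**
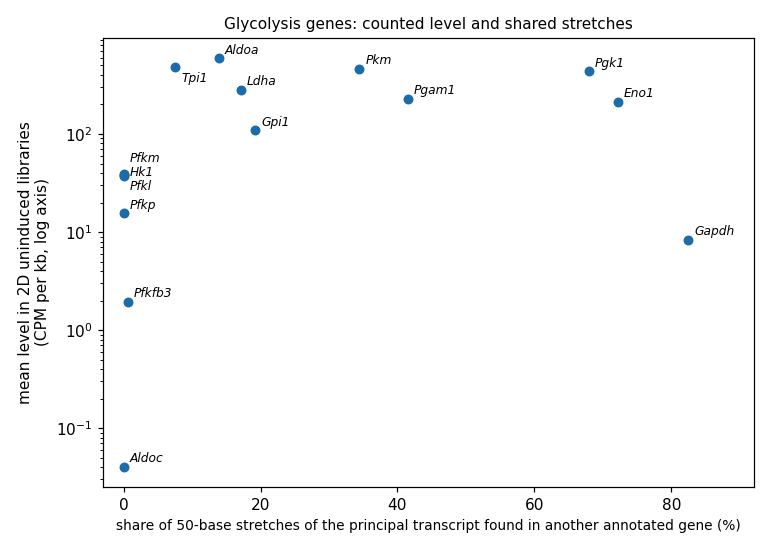
Mean level of the 15 glycolysis genes in 2D uninduced libraries (CPM per kb, log axis) against the share of 50-base stretches of the principal transcript that another annotated gene also holds (percent). Gapdh sits at 82.5% and 8.33 CPM per kb, far below Pgk1 and Eno1, which share 68.0% and 72.2%.

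Exons on the opposite strand also touch some genes of the set, and the strand setting of the counting is not given in the sources used here. Such overlap covered 22.7% of the exon bases of Ankrd37 (Lrp2bp), 22.5% of Higd1a, 22.3% of Bnip3, 19.8% of Fam162a (Wdr5b) and 11.5% of Gpi1. The overlapping genes held 4759 counts against 10245 for Bnip3, 10247 against 38812 for Gpi1 and 312 against 593 for Ankrd37. They held 321 against 6169 for Higd1a and 651 against 11082 for Fam162a. Pitrm1 covered 5.58% of the exon bases of Pfkp, with 21813 counts against 9541. What these overlaps add to the counts was not tested. On the same strand, Gm49759 overlapped 15.3% of the exon bases of Pkm, with 3652 counts against 178915 for Pkm. Gm26513 overlapped 10.2% of those of Pfkm, with 208 counts against 13372 for Pfkm.

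Other genes of the same pathways were followed as 2 wider lists. Of 39 further glycolysis and pyruvate genes, 29 were tested, and induction in 2D called 9 higher and 0 lower in edgeR, where 3.17% and 1.34% of all genes tested were. Among them Hk2, the insulin-responsive hexokinase, stood at 42.7 and 42.3 CPM in uninduced and 109 and 102 in induced flat libraries, and 68.0 and 71.9 in uninduced and 66.9 and 53.3 in induced spheroid libraries. It rose 1.31 ± 0.13 in 2D (edgeR adjusted p = 0.00123), changed by -0.22 in 3D, and its interaction of -1.53 ± 0.18 was called (edgeR adjusted p = 0.0255). Ldhb, the heart-type lactate dehydrogenase subunit, rose 1.24 ± 0.10 in 2D. Slc2a4, the insulin-responsive glucose transporter, had no counts in 2D uninduced libraries and 11.8 and 12.6 CPM in 2D induced, 0.147 and 0.0727 in 3D uninduced, and 1.62 and 2.34 in 3D induced libraries. It was the only gene of this list called on induction in 3D, where 0.583% of all genes tested were called higher and 0.328% lower. Slc2a1, the basal glucose transporter, was called in no comparison and stood at 116 and 277 CPM in the 3D induced libraries.

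In uninduced spheroids Eno2 (1.03) and Pfkfb4 (1.02) were called higher and Pygb (-1.02), a glycogen phosphorylase, and Pdp1 (-1.17), which switches pyruvate dehydrogenase on, were called lower. These are 2 of 29 genes in each direction, near the 5.42% and 4.02% of all genes tested. Induced spheroids had Pfkfb2 (1.61) higher and 5 lower, where 6.94% and 5.46% of all genes were, among them Slc2a4, Pygb (-1.27) and Ldhb (-1.06), each a log2 fold change called by edgeR.

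Of 40 further hypoxia-inducible and oxygen-sensing genes, 36 were tested, and they did not move as a block. Induction in 2D called 5 higher, among them Angptl4 (1.87) and Tfrc (1.86), and 1 lower, Arnt2 (-3.04), where 3.17% and 1.34% of all genes tested were. Induction in 3D called 0 in edgeR, where only 0.583% of all genes tested were called higher and 0.328% lower. In uninduced spheroids 4 were called higher, among them Angptl4 (1.74) and Vegfa (1.35), and 7 lower, where 5.42% and 4.02% of all genes were. Those lower with the smallest adjusted p were Ero1l (-1.09), Lox (-2.14) and Ppp1r3c (-1.08). In induced spheroids 1 was called higher and 7 lower, where 6.94% and 5.46% of all genes were, and those lower with the smallest adjusted p were Tmem45a (-1.62), Ero1l (-1.79) and Ppp1r3c (-1.66). The interaction called Angptl4 lower (-1.27 ± 0.17, edgeR adjusted p = 0.0328).

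Vegfa, the main vessel growth factor and a classic target of the hypoxia-inducible factors, stood at 78.7 and 79.0 CPM in uninduced and 133 and 135 in induced flat libraries, and 209 and 193 in uninduced and 181 and 199 in induced spheroid libraries. Every spheroid library was above every flat library, the opposite order to Adm and Ndrg1. Lox, a collagen crosslinking enzyme, stood at 3299 and 3342 CPM in uninduced and 2317 and 2472 in induced flat libraries, and 561 and 946 in uninduced and 707 and 403 in induced spheroid libraries, below all flat libraries in every spheroid library.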

How the data were processed

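RNA was sequenced from total RNA with a directional library kit, per the labels' protocols. The submitters' processing notes name featureCounts 1.6.3, HISAT2 2.1.0, Trimmomatic 0.38, FastQC 0.11.7 and build mm10. The annotation, the strand setting and other options: not given in the sources used here. The deposited values are raw read counts per Ensembl gene, whole numbers with no normalization, for 8 libraries, and 0 columns belonged to other samples. Columns were joined to samples by the sample descriptions. The 2D uninduced columns are numbered 2 and 3 in the table and 1 and 2 in the titles, which are used here.

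From these counts, edgeR 4.0.16 (R 4.3.3, limma 3.58.1) fitted all 8 libraries with 1 mean per group, robust quasi-likelihood and 4 residual degrees of freedom. The filter (filterByExpr, minimum count 10) left 15255 genes, library sizes were scaled by TMM, and tests were two-sided. Symbols and positions are from GENCODE vM21 (GRCm38), which gave 49326 genes a symbol, and rows without one held 0.0285% of counts. DESeq2 1.42.0, limma-voom, other scaling, no filter, each library left out and summed counts of sequence-sharing genes were alternatives. The last was chosen after seeing the data. Self-tests ran on simulated data. Promoter windows are RefSeq's for GRCm38.p6. Figures used matplotlib 3.10.9.

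All 34 members were named. Of each wider list, up to 3 called genes per comparison and direction with the smallest adjusted p were named, and Hk2, Slc2a1 and Vegfa always; 1 gene that the rule names is not reported here. Marker lists are given by their sums, and single markers by name where they had no counts. Members and lists were chosen with earlier results of these data known. At these depths 1 count is 0.0472 to 0.0845 CPM, and intervals cover counting error only. Same-numbered libraries of different groups deviated with correlations of -0.00619 to 0.0265, and 0.206 for the 2 spheroid groups, so not every pair passed 0.1 and they were taken to share only a number.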

Additional observations from a re-analysis of the deposited data

Results flagged for a closer look

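Egln3 responded differently to induction in the 2 culture formats: its rise was 2.55 ± 0.17 on the log2 scale in flat culture and 0.93 ± 0.17 in spheroids, a difference of -1.63 ± 0.24 (interaction in edgeR's quasi-likelihood model, adjusted p = 0.0417, n = 2 libraries per group). Both induced libraries of each format were above both uninduced libraries of that format. Over 14 alternatives the difference kept its direction and passed the threshold in 7, and over the left-out libraries it was -1.90 to -1.39.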

How the results depend on the processing

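Of the member tests, only those with an adjusted p under 0.05 or a larger fold change were recomputed, so small changes are not covered. These 93 values of single members gave 1374 recomputed values. Of those, 1258 kept direction and side of the threshold, 68 lost a call, 44 gained one and 4 changed direction. With the block of the replicate number, 12 members were higher on induction in 2D, as without it, and the interaction called Pfkfb3 in place of Egln3. Same-numbered libraries did not deviate together outside the spheroids, so the pairing rests on a number only. Over all genes, induction in 2D called 689, against 1346 with limma-voom, 1213 with only the 4 libraries compared and 225 to 1169 with each library left out. Induction in 3D called 139, against 240 with DESeq2, 336 with no filter, 78 with limma-voom, 0 with only its 4 libraries and 24 to 1225 with each library left out. Uninduced spheroids against flat culture called 1440 (552 to 2170 left out) and induced ones 1892, against 825 with only their 4 libraries and 871 to 3025 left out. The interaction called 58, against 161 with DESeq2, 209 with no filter, 97 with limma-voom and 1 to 686 left out. With each library left out, members called higher were 2 to 11 on induction in 2D, 0 to 4 in 3D (lower 0 to 1), 0 to 1 in uninduced and 0 to 1 in induced spheroids against flat culture, and 0 to 1 for the interaction (lower 0 to 7). Members higher in uninduced spheroids numbered 2 with no filter, with the replicate block, with limma-voom and with only the 4 libraries, Car9 beside Gapdh each time, and 0 with summed counts. In induced spheroids DESeq2 and limma-voom gave 0. Only the 4 libraries also gave 0, but Car9 was not among the 32 members tested there. The interaction called 4 lower with DESeq2, 4 with no filter and 3 with limma-voom. Gapdh in uninduced spheroids turned to -0.30 with summed counts (edgeR adjusted p = 0.210). With each library left out, Car9 on induction in 3D ranged from -1.75 to 0.0089, Adm from -0.61 to 1.34, and the interaction of Adm from -0.20 to 1.75. By counts in place of length-scaled levels, Pfkl held 45.0% in 2D uninduced and 56.8% in 2D induced libraries, and Aldoa 99.99% in both spheroid groups. Promoter windows with ACGTGC were 37.5%, against 79.2% with either core. Except where stated, the cause was not tested. With 2 libraries per group and an uneven spread, the calls in spheroids rest on little replication, and Car9, Adm, Ndrg1, Ankrd37 and Slc16a3 rest on few counts per library.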
